A study of Mus musculus with 6 samples.

Results

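Genes of cholesterol synthesis, uptake and export were compared between mesenchymal stem cells (MSC) and neural crest stem cells (NCSC), both cultured from the bone marrow of adult mice, on 3 Affymetrix arrays of each. The set holds 31 genes, chosen by their place in the pathway, with earlier results of these data known. Every probe set annotated to exactly 1 of them was used. An annotated probe set was found for 28 genes, 61 probe sets in all, while Acat2, Soat1 and Nr1h2 had none in the annotation used here and were not analysed here. A probe set was kept when its log2 intensity was above 4 on at least 3 of the 6 arrays, and 47 were. They gave 26 genes for testing, out of 10501 genes tested in all, each represented by its brightest kept probe set. All 26 were above the limit on all 6 arrays, so that none entered through only 1 cell type, while Abcg1 and Nr1h3 had no kept probe set.

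Both cell types came from the marrow of adult female mice, 10 weeks of age and of mixed C57BL/6 x SV129 background. All of the mice carried wnt1/CRE and R26R-lacZ, a pair of transgenes in which Cre driven by Wnt1 sequences switches on a lacZ reporter and so marks descendants of the neural crest. The cells received no treatment and were kept in Mesencult medium for 5 passages or more, after which clones were selected. Whether the arrays of a cell type came from different clones or animals was not given in the sources used here. The p-values therefore measure only how far these samples scatter, which can be technical scatter, and clone and cell type cannot be told apart. Nor can fewer expressing cells be told apart from less RNA per cell.

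Cholesterol is made in the endoplasmic reticulum from acetyl-CoA, first through mevalonate to the isoprenoid farnesyl diphosphate, and then through squalene and lanosterol to the finished sterol. The SREBP transcription factors switch this pathway on when sterol is scarce. They are held in the endoplasmic reticulum by Scap and the Insig proteins until sterol falls, and are then carried to the Golgi and cut. Cells also take up cholesterol in lipoproteins, release it from the lysosome through the NPC proteins, and export the excess through ABC transporters, whose genes are driven by the oxysterol-sensing LXR receptors. In neural crest derivatives such as Schwann cells, sterol synthesis is known for supplying myelin membrane.

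The labels were checked against marker genes. The 6 neural crest markers with a probe set were above the limit on all NCSC arrays, with Sox10 at 12.62 to 13.08 there and 3.92 to 4.82 in MSC. Of these markers 2, Tfap2a and Pax3, were above the limit on all MSC arrays too (means of 7.22 and 4.73 against 11.47 and 9.48 in NCSC). The 8 stromal markers with a probe set did not all follow the MSC label. Pdgfrb, Cd44 and Itgb1 were above 13 on all arrays, Pdgfra and Vcam1 were higher in MSC (means of 9.61 and 12.61 against 6.44 and 8.57), and Eng and Nt5e were higher in NCSC (10.30 and 8.51 against 5.61 and 3.00, the last under the limit). Thy1 was at 2.12, the lowest value of the table, on every array. Markers of endothelium were at that lowest value on all arrays, and so were the leukocyte genes Ptprc, Itgam and Cd3e. Of the other macrophage-type genes Lyz2 and Cd68 were brighter in NCSC (means of 8.33 and 8.80 against 6.36 and 2.77), Cd14 was brighter in MSC (4.58 against 2.18) and Csf1r was at 3.81 in MSC and 4.34 in NCSC. The summed intensity of the 8 macrophage and blood genes was 145 to 149 in MSC and 728 to 878 in NCSC. Of 5 adipocyte genes Adipoq, Cidec and Lep were at the lowest value throughout, while Pparg and Fabp4 brought the summed intensity to 11972 to 14291 in MSC against 24.6 to 37.0 in NCSC. One array of each cell type stood apart. MSC 2 differed more than 2-fold from MSC 1 and MSC 3 in 2.69% and 2.62% of the genes tested and NCSC 3 from NCSC 1 and NCSC 2 in 4.98% and 4.63%, against 0.409% between MSC 1 and MSC 3 and 0.438% between NCSC 1 and NCSC 2. Results that rest on these 2 arrays are given with and without them.

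RefSeq promoters of the mouse assembly GRCm38.p6, 300 bases from 250 before to 50 after a transcription start, were listed for 25 of the 31 genes in 34 entries. Promoters of 1 chromosome were left out, for the listed genes and for all promoters alike. Fdps, Fdft1, Sqle, Stard4, Abcg1 and Npc1 had no entry among the promoters used here. Each promoter was searched on both strands for the letters TCACNCCAC (an SREBP-type element), CCAAT (the motif of NF-Y, a known partner of SREBP) and GGGCGG (the motif of Sp1). TCACNCCAC was found in 1 of the 34 promoters, that of Hmgcs1, and in 1.24% of all 32851 promoters. CCAAT was found in 21 of 34 and in 37.4% of all, and GGGCGG in 26 of 34 and in 35.7% of all. Below are the promoter with the SREBP-type letters and those of Nsdhl and Hsd17b7, a pair of sterol step genes that rose in NCSC. Capitals mark TCACNCCAC and CCAAT on either strand (ATTGG is CCAAT read on the opposite strand), and no marked motifs overlap.
Hmgcs1 (chr13:119690101-119690400, plus strand): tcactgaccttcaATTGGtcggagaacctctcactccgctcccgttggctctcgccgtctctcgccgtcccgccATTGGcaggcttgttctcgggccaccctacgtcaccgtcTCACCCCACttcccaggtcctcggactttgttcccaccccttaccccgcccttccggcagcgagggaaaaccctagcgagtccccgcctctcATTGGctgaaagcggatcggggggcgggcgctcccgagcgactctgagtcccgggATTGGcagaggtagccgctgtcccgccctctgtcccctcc
Nsdhl (chrX:72918271-72918570, plus strand): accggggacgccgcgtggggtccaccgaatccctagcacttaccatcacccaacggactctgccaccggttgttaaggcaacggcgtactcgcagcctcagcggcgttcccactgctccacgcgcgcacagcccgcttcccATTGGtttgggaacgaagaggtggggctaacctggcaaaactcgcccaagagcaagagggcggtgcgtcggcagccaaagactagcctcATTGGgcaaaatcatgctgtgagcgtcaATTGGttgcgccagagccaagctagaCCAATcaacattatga
Hsd17b7 (chr1:169969156-169969455, minus strand): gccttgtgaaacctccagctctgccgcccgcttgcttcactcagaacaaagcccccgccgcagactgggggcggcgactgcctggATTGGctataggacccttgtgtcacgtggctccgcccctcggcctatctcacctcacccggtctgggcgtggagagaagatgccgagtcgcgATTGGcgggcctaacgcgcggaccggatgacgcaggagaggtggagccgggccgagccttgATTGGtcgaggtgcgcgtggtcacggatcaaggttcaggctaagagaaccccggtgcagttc
In the Hmgcs1 promoter the letters TCACCCCAC began 137 bases before the start, with 3 CCAAT matches before the start and 1 after it. Hsd17b7 held 3 CCAAT matches, all before the start. Nsdhl held 4 CCAAT matches, 109 and 20 bases before the start and 8 and 34 bases after it. The other sterol step genes that rose held fewer CCAAT matches, Dhcr7 and Ebp at most 2 in a promoter and Tm7sf2 and Sc5d 1. Mvk and Msmo1, not called between the cell types below, held 5 and 3, and Idi1, which fell, held 2. Whether such matches go with a rise was not tested. A match is a description of these letters and not a measured binding site.

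Between the cell types, cholesterol genes were more often higher than lower in NCSC. Of the 26 genes tested 13 rose in NCSC, 1 fell (Idi1) and 12 were not called, at an adjusted p under 0.05 in a limma fit over all genes. Over all 10501 genes 35.0% rose and 29.1% fell by the same rule. The median difference, NCSC minus MSC on the log2 scale, was 0.47 for the 26 genes and 0.056 for all genes tested. The arrays of the cell types did not overlap for the same number of genes, 13 higher and 1 lower in NCSC, beside 39.2% and 32.0% of all genes. A rise of at least 2-fold was called for 7 of the 26 genes, namely Tm7sf2, Nsdhl, Hsd17b7, Dhcr7, Insig1, Npc1 and Abca1, beside 15.1% of all genes. Taking the kept probe sets one by one, 20 of 47 rose and 1 fell, beside 33.0% and 27.2% of the 18640 probe sets tested. The list was not tested as a set. The macrophage and adipocyte marker sums given above also differed between the cell types, and their part in these counts was not tested. The plot of differences shows these genes by step.

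**Figure D1:**
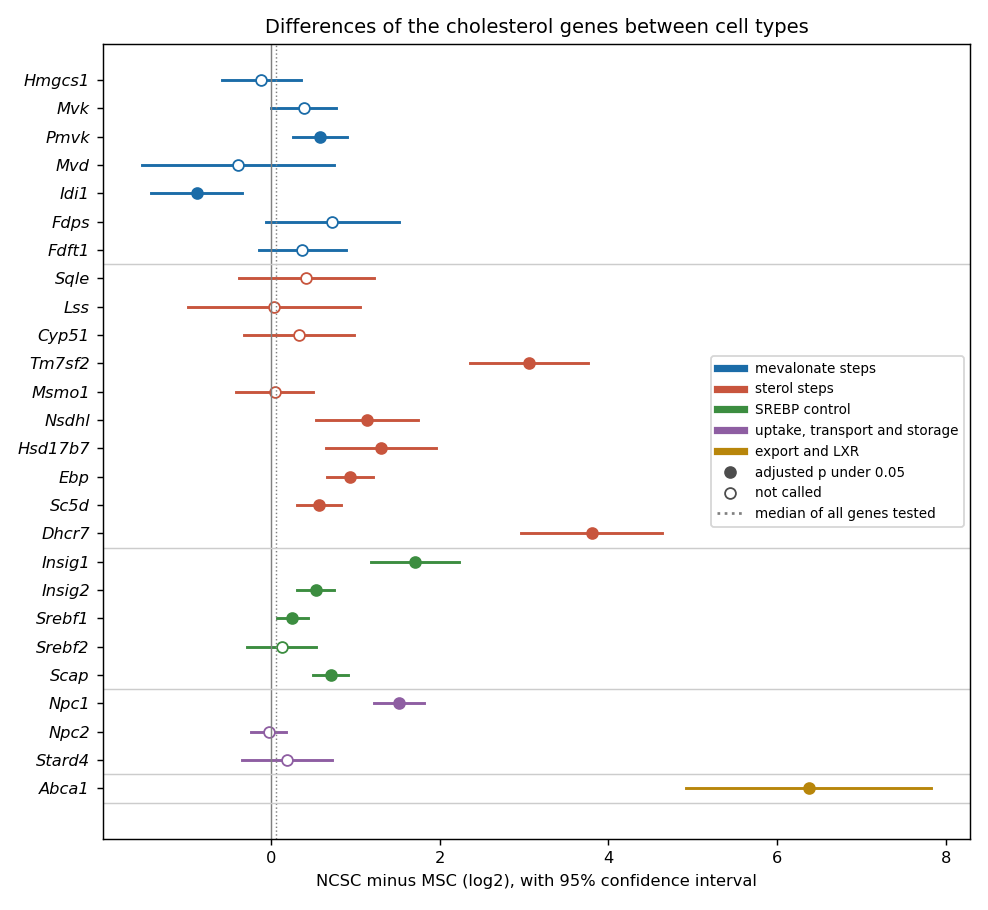
Difference between NCSC and MSC (log2, horizontal axis) for the 26 tested cholesterol genes, with the 95% confidence interval of the limma fit as a bar. Filled points were called at an adjusted p under 0.05, colours give the step, and the dotted line is the median of all genes tested at 0.056. Abca1 lies farthest to the right at 6.37 and Idi1 farthest to the left at -0.88.

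Genes of the mevalonate steps, which lead from acetyl-CoA to squalene, mostly did not pass the test. Of 7 tested 1 rose in NCSC, 1 fell and 5 were not called, with a median difference of 0.37, where 35.0% of all genes rose and 29.1% fell. Pmvk, the kinase that adds a further phosphate to phosphomevalonate, had log2 intensities of 8.07, 7.87 and 8.31 on MSC 1, MSC 2 and MSC 3 and of 8.59, 8.77 and 8.63 on NCSC 1, NCSC 2 and NCSC 3. Every NCSC array was above every MSC array, and the difference was 0.58 ± 0.13 (SE; adjusted p = 0.00884). Idi1, the isomerase that makes dimethylallyl diphosphate, moved the other way, with 11.38, 11.17 and 11.67 in MSC and 10.74, 10.74 and 10.08 in NCSC. Its groups did not overlap either, and it fell by 0.88 ± 0.22 on the log2 scale (adjusted p = 0.0138). The fall of Idi1 was not called without NCSC 3 (-0.51, adjusted p = 0.0969) or without the filter on low values (adjusted p = 0.0644, range 0.0017 to 0.0969 over all settings).

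The other mevalonate genes overlapped between the cell types. Hmgcs1, the synthase that makes HMG-CoA, had 13.02, 12.77 and 13.05 in MSC and 13.15, 12.91 and 12.45 in NCSC. The difference was -0.11, and its 95% confidence interval ran from -0.58 to 0.36. Its 3 other kept probe sets differed by -0.27 to -0.15 and were not called. Fdps, which makes farnesyl diphosphate, had 12.37, 11.43 and 12.34 in MSC against 13.05, 13.00 and 12.29 in NCSC. All its NCSC arrays but NCSC 3 were above all MSC arrays, and the difference of 0.73 was not called (adjusted p = 0.0938, interval -0.066 to 1.52). Fdft1, the squalene synthase, differed by 0.37 (interval -0.15 to 0.88) and the mevalonate kinase Mvk by 0.39 (0.0040 to 0.77, adjusted p = 0.0716). Mvd, the decarboxylase of the pathway, had the widest interval of the 7 genes, from -1.53 to 0.75, with 7.33, 6.47 and 7.30 in MSC and 7.22, 7.07 and 5.64 in NCSC. Its difference was -0.39 and turned to 0.11 without NCSC 3, not called in either case.

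The sterol steps, from squalene to cholesterol, held 6 genes that rose in NCSC and none that fell, with 4 of the 10 not called and a median difference of 0.75, beside the same 35.0% and 29.1% of all genes. By an unadjusted p under 0.05 none of the 10 fell either. The genes that rose by their brightest probe set act after lanosterol. Dhcr7, a reductase of the last steps, whose loss causes Smith-Lemli-Opitz syndrome, had 5.00, 4.14 and 5.34 in MSC and 8.62, 9.0 and 8.26 in NCSC. Its lowest NCSC array was thus far above its highest MSC array, and the difference was 3.80 ± 0.34 (SE; 13.9-fold, adjusted p = 0.000177). Tm7sf2, a sterol reductase of the endoplasmic reticulum and nuclear envelope related to the lamin B receptor, had 6.69, 6.72 and 6.90 in MSC and 10.20, 10.14 and 9.15 in NCSC. It rose by 3.06 ± 0.29 (8.35-fold, adjusted p = 0.000207).

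Nsdhl and Hsd17b7 take part in removing the methyl groups at carbon position 4 of the sterol ring, and both rose more than 2-fold. Nsdhl had 10.61, 10.22 and 10.58 in MSC and 11.90, 11.85 and 11.08 in NCSC, a difference of 1.14 ± 0.25 (adjusted p = 0.00746). Hsd17b7 had 9.02, 8.83 and 9.17 in MSC and 10.63, 10.61 and 9.70 in NCSC, a difference of 1.31 ± 0.27 (adjusted p = 0.00594). NCSC 3 was the lowest NCSC array for both genes and still above every MSC array. Ebp, the sterol isomerase that also binds emopamil, rose by 0.94 ± 0.11, from 12.17 to 12.35 in MSC to 13.01 to 13.32 in NCSC. Sc5d, the desaturase that prepares the substrate of Dhcr7, rose by 0.57 ± 0.11 from 10.29 to 10.42 in MSC to 10.74 to 11.04 in NCSC, or by 0.88 with its probe sets averaged.

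The genes that turn squalene into lanosterol and begin its demethylation overlapped between the cell types in their brightest probe sets. Sqle, the squalene epoxidase, a rate-limiting enzyme of the sterol branch, had 11.68, 10.65 and 11.60 in MSC and 11.96, 11.94 and 11.27 in NCSC. Its difference of 0.42 was not called, with an interval of -0.38 to 1.22. Lss, the lanosterol synthase, differed by 0.031 (interval -0.99 to 1.05) and the lanosterol demethylase Cyp51 by 0.33 (-0.32 to 0.98). The other kept probe set of Lss did not overlap and rose by 1.09 (adjusted p = 0.00758, limma fit over all probe sets). Msmo1, the methylsterol oxidase, differed by 0.042 (-0.41 to 0.50). For the brightest probe sets of Sqle, Lss and Cyp51, MSC 2 lay 0.75 or more below both other MSC arrays, and NCSC 3 was the lowest NCSC array.

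**Figure D2:**
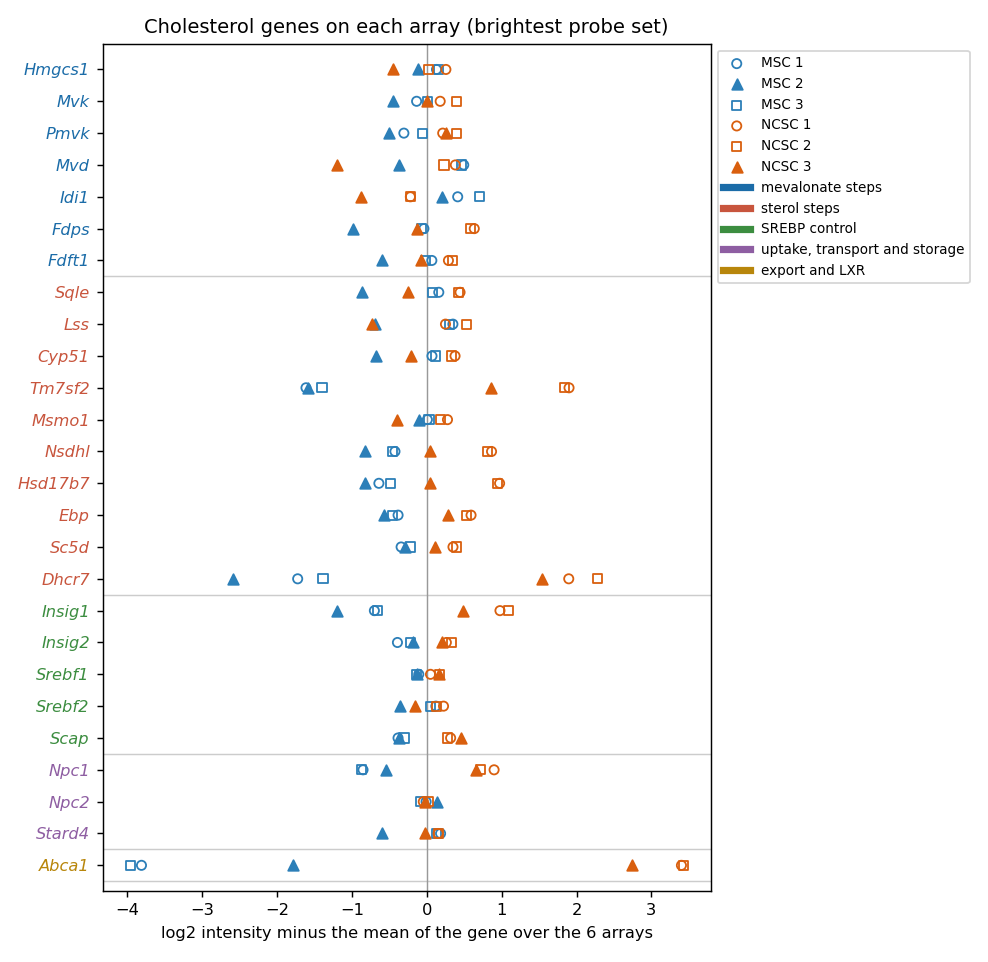
Log2 intensity of each cholesterol gene on each of the 6 arrays, minus the mean of the gene over the 6 arrays (horizontal axis), for the brightest probe set. Blue symbols are MSC and orange symbols NCSC, filled triangles mark MSC 2 and NCSC 3, and colours of the gene names give the step. In the synthesis rows the filled triangles mostly lie to the left of the other symbols of their colour, while for Abca1 the MSC 2 triangle lies 2.10 log2 units to the right of the mean of MSC 1 and MSC 3.

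Of 5 genes of SREBP control 4 rose in NCSC and 1 was not called, beside 35.0% of all genes that rose. These 5 include Srebf1 and Srebf2, which encode SREBP itself. Insig1, which keeps SREBP in the endoplasmic reticulum and is itself an SREBP target, had 10.73, 10.23 and 10.77 in MSC and 12.40, 12.51 and 11.92 in NCSC. It rose by 1.70 ± 0.21 (SE; 3.25-fold, adjusted p = 0.000744), with no overlap of the arrays. Insig2, its relative, rose by 0.53 ± 0.091 (adjusted p = 0.00284), and its other kept probe sets rose by 0.65 and 0.80. Scap, the escort protein that carries SREBP to the Golgi, rose by 0.71 ± 0.084, from 10.54 to 10.62 in MSC to 11.20 to 11.38 in NCSC.

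The SREBP genes themselves differed little. Srebf1, which encodes the SREBP forms better known for fatty acid synthesis, had 10.16, 10.13 and 10.13 in MSC and 10.31, 10.43 and 10.42 in NCSC. Its groups did not overlap and the difference was 0.25 ± 0.075 (adjusted p = 0.0264). This call was lost in 6 of 18 alternatives, among them quantile normalization (0.20, adjusted p = 0.0678), arrays centred on their median (0.19, adjusted p = 0.086), and leaving out MSC 1 (adjusted p = 0.0722), MSC 3 (adjusted p = 0.0857) or NCSC 2 (adjusted p = 0.0768), within a range of 0.0094 to 0.086. With the replicate number as a block it was not called either (adjusted p = 0.085). Srebf2, the main SREBP of cholesterol synthesis, differed by 0.13 with an interval of -0.28 to 0.53, and its other kept probe set by 0.28, neither of them called.

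Among genes of uptake, transport and storage, Npc1 rose and Npc2 and Stard4 were not called. Npc1, the lysosomal membrane protein through which cholesterol leaves the lysosome, had 10.56, 10.86 and 10.54 in MSC and 12.31, 12.12 and 12.07 in NCSC. It rose by 1.52 ± 0.12 (SE; 2.86-fold, adjusted p = 0.000115), and its arrays lay more than 1 log2 unit apart between the cell types. Npc2, the soluble partner that hands cholesterol to Npc1, was at 14.35 to 14.57 in MSC and 14.39 to 14.46 in NCSC in its brightest probe set. Its difference was -0.029 (interval -0.24 to 0.18), and a set of like brightness differed by 0.046, not called either. Another, dimmer Npc2 probe set had 8.76, 9.03 and 8.70 in MSC and 10.79, 10.75 and 10.62 in NCSC, and rose by 1.90 ± 0.12 (adjusted p = 4.53e-05), so that the probe sets of Npc2 disagreed. Averaged over its 3 probe sets Npc2 was higher in NCSC (0.64, adjusted p = 0.0017, within a range of 0.0017 to 0.986 over all settings). Stard4, a carrier of cholesterol within the cell and an SREBP target, had 11.58, 10.80 and 11.53 in MSC and 11.55, 11.56 and 11.37 in NCSC, a difference of 0.19 with an interval of -0.35 to 0.73.

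Abca1, the transporter that loads cellular cholesterol onto apolipoprotein, showed the largest difference of the 26 genes. It had 5.44, 7.46 and 5.29 in MSC and 12.65, 12.68 and 11.99 in NCSC, means of 6.06 ± 1.21 and 12.44 ± 0.39 (SD, n = 3). No arrays overlapped, although MSC 2 was about 2 log2 units above the other MSC arrays, and the difference was 6.37 ± 0.60 (SE; 82.9-fold, adjusted p = 0.000205). Without MSC 2 the difference was 7.07, without MSC 2 and NCSC 3 it was 7.30, and with array weights 7.14. The other Abca1 probe sets were under the limit on all arrays, at 2.12 to 2.13 in MSC and 2.74 to 3.50 in NCSC, and give no fold. Abcg1, which exports cholesterol to lipoprotein particles, was at the lowest value of 2.12 on all arrays in both of its probe sets. Nr1h3, the LXR alpha receptor, was at 2.13 to 2.14 throughout. Abca1 and Npc1 are also abundant in macrophages, and the summed macrophage and blood markers given above moved with them through Lyz2 and Cd68, while Ptprc and Itgam were at the lowest value on all arrays and Adgre1 at 2.13. Their part in these differences was not tested.

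Several genes had more than 1 kept probe set, and most of these sets agreed in direction and call. This was so for Hsd17b7, whose other sets rose by 1.25 and 1.54, for Sc5d (1.2), for Insig2, and for Hmgcs1, Mvd, Fdft1, Cyp51 and Srebf2, in each of which the sets had the same sign and no set was called. The probe sets of Lss did not agree. Its brightest one, of a type that can match related genes, had 9.86, 8.82 and 9.82 in MSC and 9.76, 10.05 and 8.78 in NCSC, while the other had 8.31, 7.89 and 8.39 in MSC and 9.59, 9.41 and 8.86 in NCSC. The latter rose by 1.09 ± 0.23 (SE; adjusted p = 0.00758, limma fit over all probe sets). The brightest sets of Mvd, Fdft1 and Hsd17b7 are also of types that can match related genes. So are those of Acsl3, Stard5, Vldlr and Pltp, named below. Idi1 differed by -0.81 in its other probe set, which was not called (adjusted p = 0.0607). Mvk and Msmo1 had another probe set of opposite sign, -0.28 and -1.07, as did Stard4 with -0.014, and none of these was called (for Mvk and Msmo1, adjusted p = 0.28 and 0.11).

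**Figure D3:**
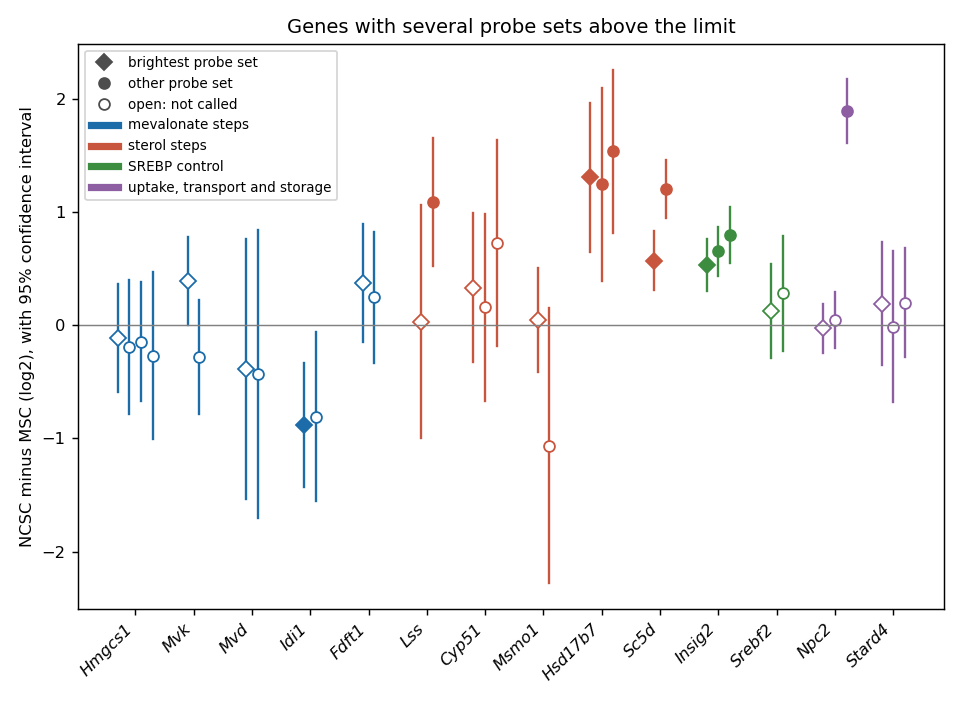
Difference between NCSC and MSC (log2, vertical axis) for each kept probe set of the 14 genes with more than 1, with 95% confidence intervals from the limma fit over all probe sets. Diamonds are the brightest probe set of a gene, circles the others, and open symbols were not called. The sets of Hsd17b7, Sc5d and Insig2 all lie above 0, while those of Lss and Npc2 are called in 1 set and not in the brightest.

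Within each cell type, synthesis genes varied together. On MSC 2 the 17 tested genes of synthesis lay below the other MSC arrays by a median of 0.38, and MSC 2 was the lowest MSC array for 15 of the 17, all but Tm7sf2 and Sc5d. On NCSC 3 they lay below the other NCSC arrays by a median of 0.63, and NCSC 3 was the lowest NCSC array for 16 of the 17, all but Pmvk. Over all genes tested MSC 2 was the lowest MSC array for 46.7% and NCSC 3 the lowest NCSC array for 43.7%, with median deviations of -0.030 and -0.016. Both held for 14 of the 17 synthesis genes and for 18.3% of all genes. This comparison was chosen after the values were seen and describes 1 array of each group, so it has no test.

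The size of the deviation differed between genes. Lss was 1.02 below the mean of the other arrays on MSC 2 and 1.12 below it on NCSC 3, in log2 units. For Sqle the shortfalls were 0.99 and 0.68, for Fdps 0.93 and 0.73, and for Mvd 0.84 and 1.5. Dhcr7 was 1.04 lower on MSC 2 and 0.55 lower on NCSC 3. At the other end, Ebp deviated by -0.15 and -0.28 and Sc5d by -0.016 and -0.27. Of the SREBP targets outside synthesis, Insig1 was lower on both arrays (-0.52 and -0.54), and Stard4 by -0.76 on MSC 2 and -0.18 on NCSC 3. Srebf2 was lower as well, by -0.45 and -0.34, whereas Srebf1 (-0.011 and 0.048) and Scap (-0.028 and 0.16) stayed within 0.2 of the other arrays. Abca1 and Npc1 were above the other arrays on MSC 2, by 2.10 and 0.31, and below them on NCSC 3 (-0.68 and -0.15).

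**Figure D4:**
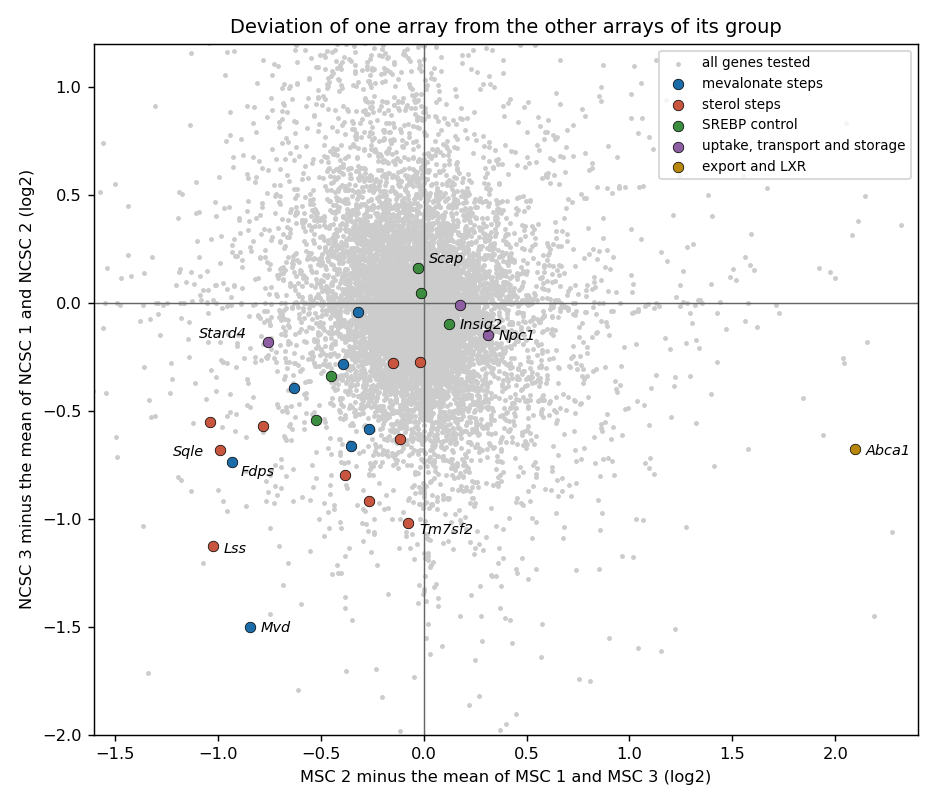
Log2 intensity on MSC 2 minus the mean of MSC 1 and MSC 3 (horizontal axis) against that on NCSC 3 minus the mean of NCSC 1 and NCSC 2 (vertical axis), with every gene tested in grey and the cholesterol genes coloured by step. Another 231 genes lie outside the axes. The 17 synthesis genes all fall below 0 on both axes, from Sc5d near the vertical line to Lss at -1.02 and -1.12, and Abca1 stands apart on the right.

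Leaving out both arrays that stood apart narrowed the spread and brought further genes past the threshold. Both arrays were picked from these same data and were the lowest of their group for most synthesis genes. A narrower spread of these genes follows from that choice, so the added calls are no separate evidence. With MSC 1, MSC 3, NCSC 1 and NCSC 2 alone 19 of the 26 genes were called higher and 1 lower. Over all 10501 genes 38.7% were called higher and 3705 genes lower. The 6 added genes were Mvk (0.35, adjusted p = 0.0401), Fdps (0.66, adjusted p = 0.00101), Fdft1 (0.29, adjusted p = 0.0171), Sqle (0.32, adjusted p = 0.0115), Cyp51 (0.26, adjusted p = 0.0194) and Msmo1 (0.21, adjusted p = 0.0402). Their differences stayed small beside those of Dhcr7 (3.64) and Tm7sf2 (3.38) in the same fit. Hmgcs1 (-0.0068), Lss (0.065) and Mvd (-0.17) were not called there. Without NCSC 3 alone 16 genes were called higher, with Mvk, Fdps and Msmo1 added, beside 3860 of all 10501 genes. Without MSC 2 alone 13 were called higher and none was added, beside 3477 of all 10501 genes. The differences were then smaller for Fdps (0.42), Fdft1 (0.16), Sqle (0.089), Cyp51 (0.069), Mvk (0.26) and Msmo1 (0.0028).

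Genes next to the pathway were taken from 5 further lists, whose counts stand beside 35.0% of all genes that rose and 29.1% that fell. In fatty acid synthesis, the other arm under SREBP control, 6 of 15 tested genes rose and 1 fell, with a median difference of 0.16, a share of rises near that of all genes. The desaturases Scd1 and Scd2 rose by 2.45 ± 0.092 (SE) and 1.31 ± 0.14, or by 1.92 and 1.98 with their probe sets averaged, and the acyl-CoA synthetase Acsl3 rose by 1.51 ± 0.17. The elongase Elovl6 fell by 1.12 ± 0.39 (adjusted p = 0.0433), a call lost in 7 alternatives (up to 0.157, range from 0.000612), among them leaving out any array but MSC 2. Its groups overlapped, since MSC 2, at 8.56, lay 1.38 below the other MSC arrays and just under NCSC 2 at 8.58. MSC 2 and NCSC 3 were both the lowest of their group for 5 of these 15 genes, beside 18.3% of all genes. MSC 2 was the lowest MSC array for 9 of the 15, with a median deviation of -0.27, beside 46.7% of all genes. NCSC 3 was the lowest NCSC array for 8, beside 43.7%.

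Of genes on the isoprenoid side branches 2 of 8 rose and 3 fell (median -0.21). MSC 2 was the lowest MSC array for 6 of these 8, beside 46.7% of all genes, and NCSC 3 the lowest NCSC array for 3, beside 43.7%. The farnesyltransferase subunit Fntb and the ubiquinone enzyme Coq2 rose by 0.78 ± 0.13 and 0.43 ± 0.077, while the dolichol enzymes Dhdds and Nus1 and the geranylgeranyl diphosphate synthase Ggps1 fell by 0.96 ± 0.12, 0.38 ± 0.083 and 0.65 ± 0.17 (SE). Ggps1 was not called without MSC 2 (adjusted p = 0.0504), MSC 3 (0.0555), NCSC 2 (0.0584) or the filter (0.0688, range 0.000423 to 0.0688). Among genes of SREBP cleavage and of protein degradation in the endoplasmic reticulum 2 of 9 rose and 3 fell (median -0.29). The protease Mbtps1, which makes the first cut in SREBP, fell by 0.55 ± 0.076, and the ATPase Vcp, which extracts proteins for degradation, by 0.39 ± 0.075. Pgrmc1 differed by -0.29 ± 0.10, a call lost in 10 alternatives. The degradation factor Ufd1 rose by 0.55 ± 0.11, or by 0.25 with its probe sets averaged (adjusted p = 0.0436), and the ubiquitin ligase Rnf139 differed by 0.29 ± 0.086, a call lost in 4 alternatives, among them leaving out MSC 3 or NCSC 2.

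Among 17 tested genes of sterol uptake, transfer and storage 8 rose and 3 fell in NCSC, with a median difference of 0.70. Stard5, a sterol carrier related to Stard4, rose by 3.64 ± 0.31 (SE; 4.24 with its probe sets averaged). Nceh1, a hydrolase of stored cholesterol ester, had 8.93, 8.94 and 8.95 in MSC and 12.07, 11.98 and 11.76 in NCSC, and rose by 3.00 ± 0.10. The lipoprotein receptor Vldlr had 10.81, 8.36 and 10.94 in MSC and 12.79, 12.85 and 12.81 in NCSC. It rose by 2.78 ± 0.68 (adjusted p = 0.0122), or by 1.94 without MSC 2 and 3.46 with its probe sets averaged, and was not called without the filter (adjusted p = 0.0664, range 6.65e-05 to 0.0664). Caveolin Cav1 fell by 2.23 ± 0.10, the lipoprotein receptor relative Lrp1 by 1.47 ± 0.24 and the oxysterol-binding protein Osbp by 0.36 ± 0.086.

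Of 8 tested partners of export and oxysterol metabolism 4 rose and 1 fell (median 0.29). The bile acid enzyme Hsd3b7 rose by 2.00 ± 0.15 (SE) and the transporter Abca7, a relative of Abca1, by 1.91 ± 0.18. Abca2, also of the Abca1 family, was under the limit on all MSC arrays and at 4.04 to 4.65 in NCSC, which makes it at least 1.19-fold higher, a call lost with values under the limit set to 4 (adjusted p = 0.262). The phospholipid transfer protein Pltp, which remodels lipoprotein particles, fell by 1.53 ± 0.19, from 12.38 to 13.01 in MSC to 10.92 to 11.25 in NCSC.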

How the data were processed

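The deposited table holds 45101 probe set intensities per array on a linear scale, made by the authors with GCRMA (version not given), per the submitters' processing notes. They run from 4.36 to 116597, and 33.5% to 34.5% of an array's values sit at the lowest one, 2.12 on the log2 scale. Values were taken to log2 with no further normalization. GCRMA pulls dim probe sets to a floor, so folds of dim genes are not exact and can be too small or too large. The annotation gave 1 gene for 34945 probe sets and several for 932, while 9160 were unnamed here and 64 were controls. The R package limma (version 3.58.1, under R 4.3.3; lmFit, then eBayes, both tails) was fitted over the brightest kept probe set of each gene, and separately over all kept probe sets, with Benjamini-Hochberg adjustment over each whole table. Adjusted p-values of other probe sets come from the second fit. The fit was tested on simulated data. A bound "at least N-fold" sets dim arrays to the limit of 4. Members were named by rule in full, and neighbouring genes as up to 3 called genes with the largest difference in each direction of a list. Members, lists and rules were chosen with earlier results of these data known.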

Additional observations from a re-analysis of the deposited data

How the results depend on the processing

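Over 18 alternatives (filters, a floor, variance models, array weights, scaling, probe set choice, a replicate block and left-out arrays), 12 of the 26 genes kept their direction and their side of the threshold in every one, all of them called. Of 468 gene values 8 lost a call, 11 gained one and 18, in 7 genes, changed sign. Of these 18 only Npc2 with probe sets averaged (0.64) was called. The other 17 were called neither before nor after. The filters, the floor, the variance model, the fit over all probe sets and the replicate block leave each difference of these genes unchanged. No sign could turn under those settings, and only calls could change. When single arrays were left out Hmgcs1 ran from -0.27 to 0.081, Mvd from -0.68 to 0.11, Lss from -0.31 to 0.41, Msmo1 from -0.086 to 0.25, Srebf2 from -0.024 to 0.24, Npc2 from -0.077 to 0.030 and Stard4 from -0.062 to 0.33. Without both MSC 2 and NCSC 3 Npc2 (0.033) and Stard4 (-0.0024) turned. Quantile normalization turned Lss (-0.032), centring Lss (-0.033) and Msmo1 (-0.022), array weights Npc2 (0.020) and averaged probe sets Msmo1 (-0.51). Counts of genes called higher ran from 12 to 19, and all genes called from 5712 to 8104. The number called lower was 0 without the filter (limma, Idi1 at an unadjusted p under 0.05, so 1 gene) and ran from 0 to 1 when single arrays were left out, with 0 at an unadjusted p under 0.05 without NCSC 3. With the replicate number as a block 12 genes were called higher, 1 lower, 20 probe sets and 6257 genes in all. Whether arrays of equal number share more than a number was not given in the sources used here. Their deviations correlated at -0.098, 0.062 and 0.073. Deviations from a group mean are bound to each other, so these values cannot decide it. MSC 3 correlated best with the NCSC array of its own number, and MSC 1 and MSC 2 did not. The counts of synthesis genes lowest on MSC 2 and NCSC 3 were 15 to 16 and 16 under 6 alternatives chosen after the data were seen. Those among them that change only the filter leave the values of these genes as they were, so their counts could not change. The number of arrays limits the precision, and the cause of these changes was not tested.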
